A study of Mus musculus with 31 samples.

Results

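The comparison described here sets olfactory nerve of mouse embryos at E13.5 against olfactory nerve at E11.5, across all genes that passed an expression filter. It used 11 of the 31 libraries of the series, 7 at E13.5 and 4 at E11.5. All embryos carried the Sox10:H2BVenus transgene, a bacterial artificial chromosome in which the regulatory sequence of Sox10 drives a nuclear yellow fluorescent protein. No other allele and no treatment was given, so age was the intended difference between the groups. Pieces of nerve were cut by laser from frozen sections of the olfactory mucosa, in its lamina propria, where fluorescent nuclei lay. Tissue from several sections was pooled for each library. By the study's methods, the E11.5 pieces came from 2 embryos and the E13.5 pieces from 4. Some libraries therefore share an embryo, and the labels do not say which, though sex-linked genes, given at the end, split the E11.5 libraries into 2 pairs. The adjusted p-values below treat each piece as a replicate and are therefore too small, which holds for every test given. The study also states that the pieces held some adjacent tissue.

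The libraries were not grouped by their titles. The study's own table of group means was compared with the deposited counts over 1486 to 1545 genes per mean. The outer olfactory nerve layer of a later stage, grouped by title, served as the scale and was not itself matched. Each of the other means was an average of a definite set of libraries, with a largest residual of 0.00081%. The E13.5 olfactory nerve mean was the average of the libraries titled E13.5_ON2 to E13.5_ON7 and E13.5_ONL1. The E11.5 olfactory nerve mean was the average of those titled E13.5_ONL2 to E13.5_ONL5, a title that names the olfactory nerve layer, the outermost layer of the olfactory bulb, at the later stage. The libraries titled E11.5_ON1 to E11.5_ON4, with E13.5_ON1, gave the mean of the E13.5 olfactory nerve layer. Groups below follow the table of means. Where the 4 E11.5 libraries are given one by one, the order is E13.5_ONL2, E13.5_ONL3, E13.5_ONL4 and E13.5_ONL5.

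The olfactory nerve is made of the axons of olfactory sensory neurons, which grow from the epithelium of the nose to the olfactory bulb throughout life. Its glia, the olfactory ensheathing cells (OECs), descend from the neural crest, express the transcription factor Sox10, and wrap bundles of axons rather than single ones. At the earlier stage axons, migrating neurons and the first glia form a loose migratory mass in the mesenchyme beneath the epithelium. Among those neurons are the cells that make gonadotropin-releasing hormone (GnRH), which travel along the nerve into the brain. At the later stage the nerve has reached the young olfactory bulb.

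Total counts ran from 5297347 to 16413112 in the E13.5 libraries and from 24218053 to 36705535 in the E11.5 libraries, so depth did not overlap between the groups. Mitochondrial genes took 1.02 to 2.05% of counts at E13.5 and 0.549 to 0.886% at E11.5, again without overlap. Levels are given as CPM, the customary scaling of counts to library size, with trimmed mean of M-values (TMM) factors over all 31 libraries. Genes with a count numbered 21098 to 23054 at E13.5 and 20184 to 22359 at E11.5. Within the E13.5 group the pairwise correlation of log2 levels had a median of 0.962, within the E11.5 group 0.943, and between the groups 0.897. On the first principal component of the 16 libraries whose titles name either stage, which held 56.0% of the variance, and on the second, which held 26.3%, each library lay nearest to the others of its regrouped set.

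Markers of stage stood beside this grouping. Hbb-bh1, an embryonic beta-type globin of primitive red cells, had a level of 170, 1375, 2402 and 1454 CPM in the 4 regrouped E11.5 libraries. In the libraries titled E11.5_ON it lay between 9.68 and 36.5 CPM, and in the 7 regrouped E13.5 libraries between 24.4 and 84.9 CPM. Lin28a, an RNA-binding protein that blocks let-7 microRNA maturation early in development, had 2.86 to 7.33 CPM in the regrouped E11.5 libraries and was at 0 in the libraries titled E11.5_ON. Prss56, a serine protease that the study describes in OECs of the nerve layer, had at most 0.318 CPM in the 11 regrouped libraries, against 32.9 to 75.9 CPM in the libraries titled E11.5_ON. The regrouped E11.5 libraries had the highest Hbb-bh1 and Lin28a of the 16, without overlap for either.

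**Figure D1:**
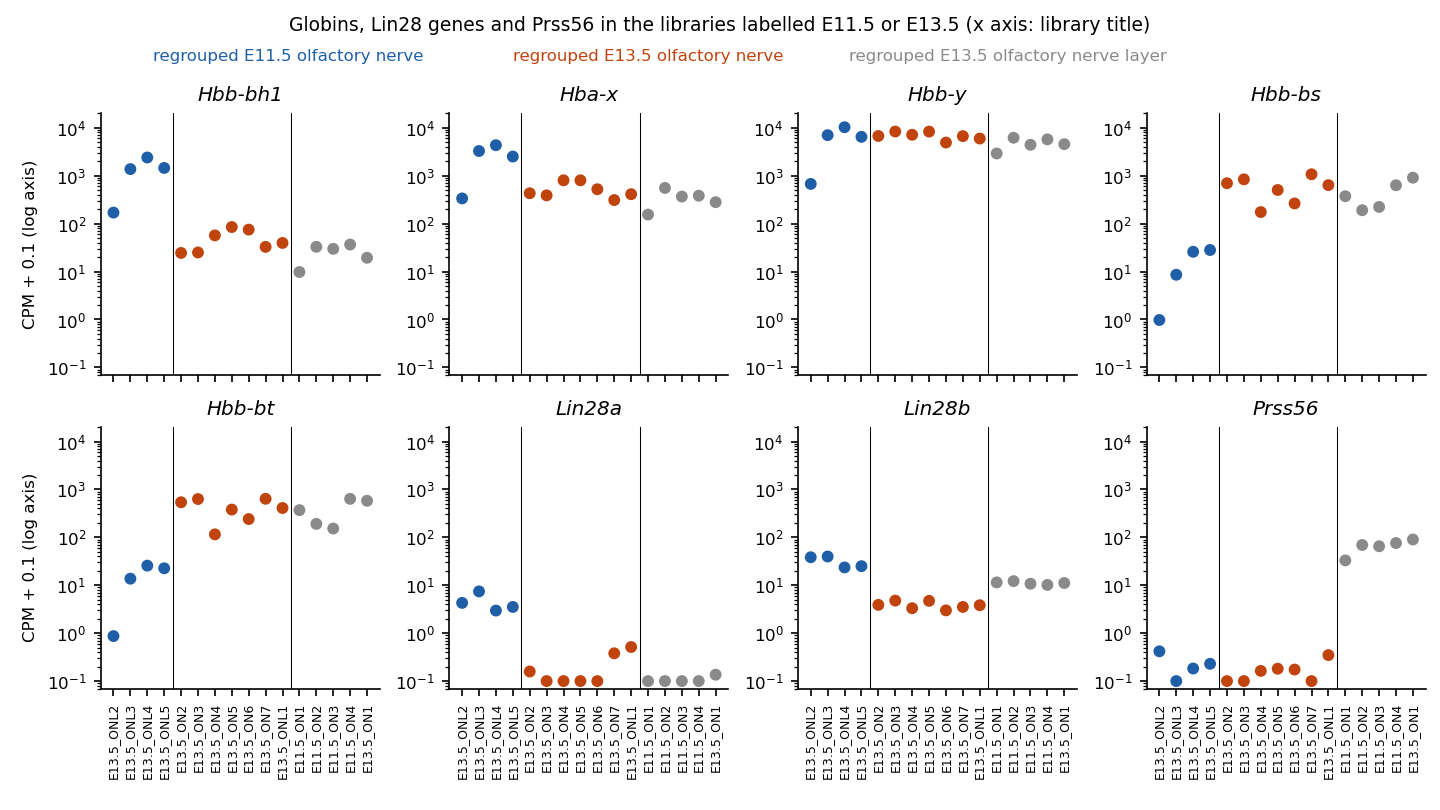
Level of 8 genes (CPM + 0.1, log axis) in each of the 16 libraries titled E11.5 or E13.5, with 1 dot per library and titles on the x axis. Blue marks the 4 regrouped E11.5 libraries, red the 7 regrouped E13.5 libraries and grey the 5 libraries averaged as E13.5 olfactory nerve layer. Hbb-bh1 was highest in the blue libraries, and Prss56 was above 1 CPM in the grey ones alone.

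Which genes differed between the stages was tested by quasi-likelihood in edgeR, with p-values adjusted by the Benjamini-Hochberg procedure. Of 19332 genes tested, 7071 differed at an adjusted p under 0.05, or 36.6%. Of these, 3903 were higher at E13.5 (20.2% of those tested) and 3168 were lower (16.4%). A change of at least 2-fold was seen for 2536 of the higher and 1384 of the lower genes. The libraries of both groups did not overlap for 4089 genes (21.2%), of which 3941 were also called. The median log2 fold change over all genes tested was 0.05. Of the higher genes, 625 had no more than 3 counts in each E11.5 library, and 108 of the lower genes had no more than 3 in each E13.5 library. Asking for at least 5 CPM in 4 libraries left 5924 calls, 2738 higher and 3186 lower, so that the share of calls that were higher was 46.2% there and 55.2% with the filter used throughout. With all 11 libraries thinned to at most 10000000 counts, 6772 genes were called. Without the library E13.5_ONL1, whose title disagreed with its group, 6773 genes were called.

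**Figure D2:**
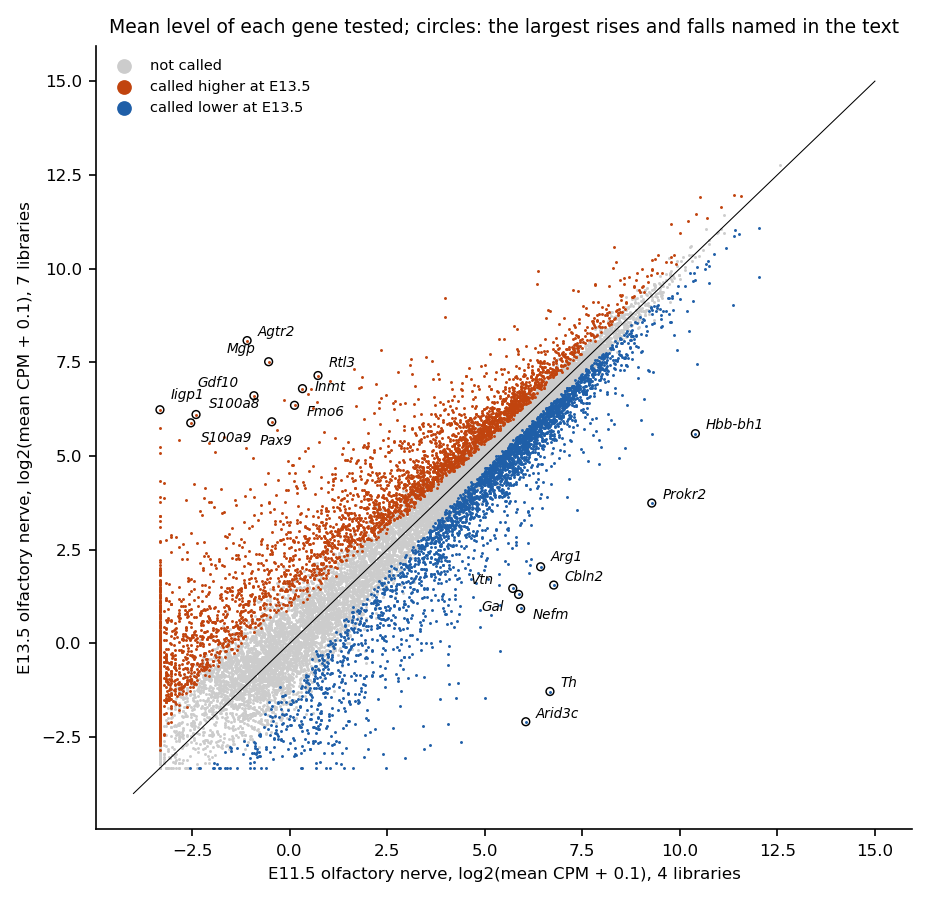
Mean level of each of the 19332 genes tested (log2 of mean CPM + 0.1), E11.5 on the x axis and E13.5 on the y axis, with 1 dot per gene, coloured by the call. The line marks equal levels, and circles mark the 10 rises and 9 falls named in the text as the largest.

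The gene behind the fluorescence that guided the laser was lower at the later stage. Sox10 (chr15:79154908-79165240, GRCm38) had a level of 338, 287, 358 and 299 CPM at E11.5. Across the E13.5 libraries its lowest, median and highest levels were 39.9, 48.9 and 85.4 CPM. The groups did not overlap, and the mean was 321 ± 33.0 CPM (SD, n = 4) at E11.5 and 57.4 ± 18.1 CPM (SD, n = 7) at E13.5. Because pieces were chosen by Sox10-driven fluorescence, this is given as a description without a test. In bulk tissue, fewer cells of a type and less RNA per cell cannot be told apart.

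Markers of the glial lineage did not move as 1 block. Of 18 tested genes fixed as a glial lineage list, 7 were higher and 4 lower at E13.5, a share called of 61.1% against 36.6% of all genes. The groups did not overlap for 6 of the 18, beside 21.2% of all genes. Sox10, by which pieces were chosen, is among the 4 and among the 6, and counts there as a description only. The median log2 fold change was 0.71, against 0.05 over all genes. S100b, a calcium-binding protein of maturing glia, had 0.397, 1.85, 0.166 and 0.453 CPM at E11.5 and 13.498, 17.3 and 32.0 CPM as lowest, median and highest level at E13.5. Every E13.5 library lay above every E11.5 library, with a log2 fold change of 4.77 (SE 0.42, adjusted p = 4.42e-10). Gfra3, a co-receptor for the growth factor artemin, rose from a mean of 12.2 to 50.9 CPM (log2 fold change 2.06, adjusted p = 0.00112).

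Fabp7 and Erbb3 were added after their values were seen. Fabp7, a fatty acid-binding protein used as an early OEC marker, had 194 to 469 CPM at E11.5 and 293 to 769 CPM at E13.5, and the difference missed the threshold (log2 fold change 0.56, adjusted p = 0.0819). It passed without E13.5_ON4 (0.0282) or E13.5_ONL2 (0.0174). Erbb3, the neuregulin receptor of neural crest glia, had 117, 34.3, 107 and 109 CPM at E11.5 and 34.2 to 43.4 CPM at E13.5 (log2 fold change -1.25, adjusted p = 6.63e-05). Its 3 higher E11.5 libraries lay above all E13.5 libraries, while E13.5_ONL3 lay among them.

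Glial genes were also set against Sox10 in the same library. The level of Erbb3, lower in CPM, was 45.6 to 101% of the Sox10 level at E13.5 and 11.95 to 36.5% at E11.5. For Fabp7 the shares were 390 to 1161% and 67.7 to 139%. The ranges were apart for both genes, and since Sox10 itself was lower at E13.5, the ratio of any gene that stayed level rises by construction. The Wnt antagonist gene Sfrp5 had overlapping shares, 3.03 to 6.31% at E13.5 and 4.18 to 7.401% at E11.5.

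The 30 genes that the study placed in OECs or Schwann cells by in situ hybridization, at a stage later than both compared here, were next read as a list. At the earlier stages the study saw no expression of Wif1, Vtn, Hes5, Npy, Prss56, Nkd2, Lypd6 or Ptgds in OECs of the mucosa. Changes of these genes are therefore changes of the pieces, and their cell source was not tested. For Sostdc1 the study's results report no OEC expression at either stage, while its discussion places it there by the later one. Sema3b and Frzb were not seen in OECs at E11.5, and Frzb in only a few mucosal OECs at E13.5. The cell source of their changes was not tested either. The study picked the 30 genes from libraries of this series, so the list is not independent evidence of a direction. Of the 30, 13 were higher and 9 lower at E13.5, a share called of 73.3% against 36.6% of all genes. The other 8 did not pass the test. The 9 include Sox10, whose fluorescence chose the pieces, so that its call is a description only. The median log2 fold change was 0.32, or 0.52 over the 28 members with a mean of at least 1 CPM in either group. Their summed level was 2607 to 3384 CPM at E13.5 and 2101 to 2444 CPM at E11.5.

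Among secreted proteins and their receptors, pleiotrophin (Ptn, chr6:36714929-36810220), a heparin-binding growth factor, had the widest gap in CPM among the 30. It had 98.2, 72.1, 75.9 and 85.5 CPM at E11.5 and 751, 974 and 1243 CPM as lowest, median and highest at E13.5. The lowest E13.5 library was above every E11.5 library, and the log2 fold change was 3.57 (SE 0.21, adjusted p = 1.21e-13). By in situ hybridization the study also saw Ptn in mesenchyme of the mucosa near E13.5 but not at E11.5, and in the olfactory epithelium at E11.5. The cell source of the rise in Ptn was not tested. Its receptor phosphatase Ptprz1 had 51.3, 19.8, 34.8 and 30.7 CPM at E11.5 and 19.1 to 30.9 CPM at E13.5, overlapping ranges with a log2 fold change of -0.55 (adjusted p = 0.0178). Without E13.5_ONL2, the highest of the E11.5 libraries for Ptprz1, its adjusted p was 0.227, and without E13.5_ON4 or E13.5_ON5 it was 0.0605 or 0.056.

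Modulators of Wnt signalling in the study's list went both ways. Frzb, a secreted Wnt antagonist, rose from 39.5 ± 11.1 to 76.6 ± 18.6 CPM (SD, n = 4 and 7, log2 fold change 0.96, adjusted p = 0.00137). Nkd2, an inhibitor that acts inside the cell, rose from 77.9 to 133 CPM with a log2 fold change of 0.77 (adjusted p = 0.0019). Wif1, a secreted Wnt inhibitor, had no count in any E11.5 library and 0.406 to 3.66 CPM at E13.5, at least 17.7-fold higher. Sostdc1, a secreted antagonist of BMP and Wnt ligands, rose from a mean of 0.277 to 3.67 CPM (log2 fold change 3.78). Sfrp5, another secreted antagonist, fell from 24.8, 12.01, 18.96 and 22.1 CPM to 1.21 to 5.39 CPM (log2 fold change -2.57, adjusted p = 3.53e-06). Lypd6, a membrane-anchored Wnt enhancer, rose from 18.1 to 34.0 CPM with no overlap (log2 fold change 0.91).

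Notch target genes of the list differed from one another in direction. Hey2, a transcriptional repressor, had 9.25, 2.39, 7.39 and 4.20 CPM at E11.5 and 20.9 to 37.9 CPM (median 27.0) at E13.5. No library overlapped, and the log2 fold change was 2.31 (SE 0.28, adjusted p = 2.43e-07). Heyl, of the same family, had 190, 81.8, 205 and 155 CPM at E11.5 and 37.3 to 76.1 CPM at E13.5, also without overlap (log2 fold change -1.34, adjusted p = 4.27e-05). Hes1 and Hes5, repressors that keep progenitors undifferentiated, had log2 fold changes of -0.06 and -0.11 and adjusted p-values of 0.909 and 0.894.

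Of the transcription factor genes, Sox5, which modulates SoxE factors, fell from 41.4, 42.0, 55.3 and 42.8 CPM at E11.5 to 7.25 to 25.5 CPM without overlap (log2 fold change -1.57, adjusted p = 1.53e-05). Zbtb20, a zinc finger repressor, had 87.0 ± 19.6 and 117 ± 23.6 CPM (SD, n = 4 and 7) at E11.5 and E13.5 and did not pass (adjusted p = 0.0647), though it did without E13.5_ON4, E13.5_ON5 or E13.5_ONL3 (adjusted p = 0.0371, 0.0225 and 0.0169).

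Other members were adhesion, guidance and membrane genes. Vtn, which encodes vitronectin, an adhesive plasma and matrix glycoprotein, fell from 40.6 to 71.3 CPM to 0.00 to 11.3 CPM (log2 fold change -4.17, adjusted p = 2.96e-05). Mmd2, a membrane protein related to progestin receptors, rose from 8.09 to 40.4 CPM (log2 fold change 2.32). Sema3b, a secreted semaphorin, rose from 2.22 to 7.32 CPM and Adgrg1, an adhesion receptor, from 18.7 to 30.3 CPM, both with overlap between the groups. Adgrg1 lost its call without E13.5_ON2, E13.5_ONL3 or E13.5_ONL4 (adjusted p = 0.053, 0.0937 and 0.053). Nell2, a secreted neural glycoprotein, fell from 137 to 57.5 CPM (log2 fold change -1.26), and E13.5_ONL3 had 63.3 CPM, among the E13.5 values. The kinase gene Fyn rose by a log2 fold change of 0.63 (adjusted p = 0.0209), a call lost without E13.5_ONL1, E13.5_ONL4 or E13.5_ONL5 (0.0692, 0.0649 and 0.0505). Ptgds, a prostaglandin synthase gene, was called lower at levels of 0.00 to 0.896 and 0.00 to 0.173 CPM. Dpysl3, Sema6a, Cntn1, Npy and Prss56 did not pass, with log2 fold changes of 0.21, -0.09, 0.09, 0.88 and -0.99. Npy passed without E13.5_ONL2 (adjusted p = 0.00583).

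**Figure D3:**
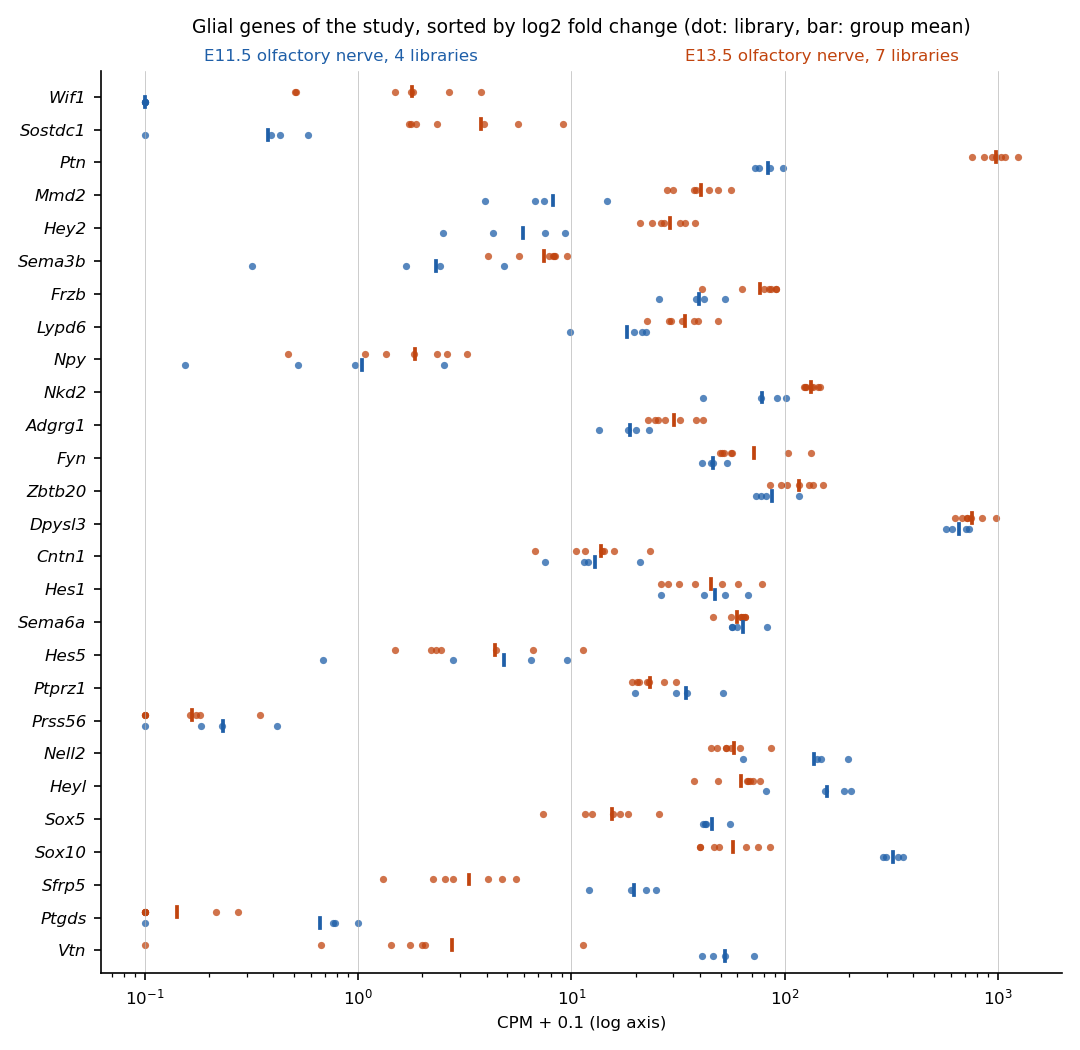
Level (CPM + 0.1, log axis) of 27 of the 30 genes that the study placed in OECs or Schwann cells at a later stage, in order of log2 fold change, with 1 dot per library (blue E11.5, n = 4; red E13.5, n = 7) and a bar at the group mean. The groups are apart for 12 of those shown, beside 21.2% of all genes tested. Among the 12 are Ptn and Hey2, higher at E13.5, and Sox10 and Vtn, lower.

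Genes of the neural crest and of the face were called in both directions. Of 14 neural crest regulators tested, 5 were higher and 3 lower, a share called of 57.1% against 36.6% of all genes. Their median of 0.24 ran from 0.12 without E13.5_ON2 to 0.53 without E13.5_ONL3. Among 17 frontonasal mesenchyme regulators, 5 were higher and 2 lower, a share called of 41.2% against 36.6% of all genes. Their median of 0.41 ran from 0.26 without E13.5_ONL5 to 0.88 without E13.5_ONL3. Id2, an inhibitor of basic helix-loop-helix factors, rose from 23.5 to 44.2 CPM at E11.5 to 180 to 234 CPM (log2 fold change 2.57, adjusted p = 1.11e-09). Tfap2b, a crest transcription factor, rose from 170 to 377 CPM. Pax9, which patterns facial and skeletal mesenchyme, rose from 0.124 to 1.23 CPM to 27.8 to 97.5 CPM, with a log2 fold change of 6.54 (adjusted p = 1.39e-09). Prrx2, a mesenchymal homeobox gene, rose from 8.46 to 38.2 CPM.

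Axonal genes were lower at E13.5. Of 20 genes of axons and the neuronal cytoskeleton, 15 were lower and none was higher, 75% called against 36.6% of all genes. Libraries did not overlap for 13, beside 21.2% of all genes, and the median log2 fold change was -1.39. The smallest number of lower calls was 13 when any 1 library was left out. The summed level of the list was 8584 to 12044 CPM at E11.5 and 2249 to 4067 CPM at E13.5.

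Gap43, a growth cone protein, had 1475, 1310, 1021 and 982 CPM at E11.5 and 263, 318 and 375 CPM as lowest, median and highest at E13.5. Every E11.5 library lay above every E13.5 library (log2 fold change -1.90, SE 0.31, adjusted p = 2.13e-05). Nefm, the medium neurofilament subunit, fell from 84.1, 51.3, 63.9 and 42.4 CPM to 1.17 to 2.43 CPM, a log2 fold change of -5.05 (SE 0.28, adjusted p = 4.18e-14). Nefl, the light subunit, fell from 73.2 to 8.86 CPM (log2 fold change -3.04) and Tagln3, an actin-binding protein of neurons, from 299 to 62.6 CPM (log2 fold change -2.26). The neuronal tubulin gene Tubb3, added after its values were seen, had 796 to 913 CPM at E11.5 and 207 to 557 CPM at E13.5 (log2 fold change -1.17, adjusted p = 0.0189).

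Genes of olfactory neuron precursors were higher over the same interval. Of 17 tested genes of the placode and neuronal precursors, 13 were higher and none lower (median 1.51), 76.5% called against 36.6% of all genes. Their summed level was 314 to 439 CPM at E11.5 and 769 to 1099 CPM at E13.5. Neurod1, a transcription factor of differentiating olfactory neurons, had 17.8, 7.31, 19.4 and 12.3 CPM at E11.5 and 86.8 to 206 CPM (median 134) at E13.5. The groups did not overlap, with a log2 fold change of 3.22 (SE 0.48, adjusted p = 4.69e-06). Neurog1, the proneural factor upstream of it, rose from 0.689 to 14.1 CPM to 19.8 to 60.8 CPM (log2 fold change 2.72, adjusted p = 0.0037). Cnpy1, which supports FGF receptor function, rose from 0.880 to 29.1 CPM.

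Genes of olfactory sensory neuron maturation rose in part. Of 19 tested, 9 were higher and 3 lower (median 0.89), a share called of 63.2% against 36.6% of all genes. The summed level went the other way, 1940 to 2714 CPM at E11.5 and 1150 to 1821 CPM at E13.5. Gap43, described with the axonal genes, is also on this list and fell from a mean of 1197 to 321 CPM. Cnga2, a subunit of the odorant-gated channel, had 2.68, 0.272, 1.08 and 6.34 CPM at E11.5 and 7.05 to 14.04 CPM at E13.5 (log2 fold change 2.103, adjusted p = 0.00877). Rtp2, a chaperone that brings odorant receptors to the surface, rose from 6.38 to 21.4 CPM (log2 fold change 1.74). Omp, the marker of mature olfactory neurons, added after its values were seen, had 0.163 to 1.99 CPM at E11.5 and 5.89 to 14.1 CPM at E13.5 (log2 fold change 2.92, adjusted p = 7.44e-05). Cnga2, Rtp2 and Omp were all without overlap.

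The list for GnRH neurons and their migration had 13 tested members, 3 higher and 4 lower. That made 53.8% called, against 36.6% of all genes. The median was -0.19, and it ran from -0.40 without E13.5_ON6 to 0.018 without E13.5_ONL5. Gnrh1, the hormone gene itself, was uneven at E13.5, with a lowest, median and highest level of 0.325, 3.99 and 350 CPM. The libraries E13.5_ON2, E13.5_ON6 and E13.5_ONL1 had 120, 350 and 157 CPM, and the other 4 had at most 3.99 CPM. At E11.5 the levels were 0.662, 1.98, 0.207 and 0.356 CPM, overlapping the E13.5 values, and the log2 fold change was 6.75 (SE 1.89, adjusted p = 0.00572). Prokr2, a prokineticin receptor needed for olfactory bulb and GnRH development, had 676, 308, 530 and 975 CPM at E11.5 and 8.21 to 20.4 CPM at E13.5. That fall, without overlap, was among the largest (log2 fold change -5.56, SE 0.58, adjusted p = 1.11e-08). Chd7, a chromatin remodeller, fell from 185 to 72.1 CPM (log2 fold change -1.36). Isl1, a LIM homeobox factor, added after its values were seen, did not pass (adjusted p = 0.53).

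**Figure D4:**
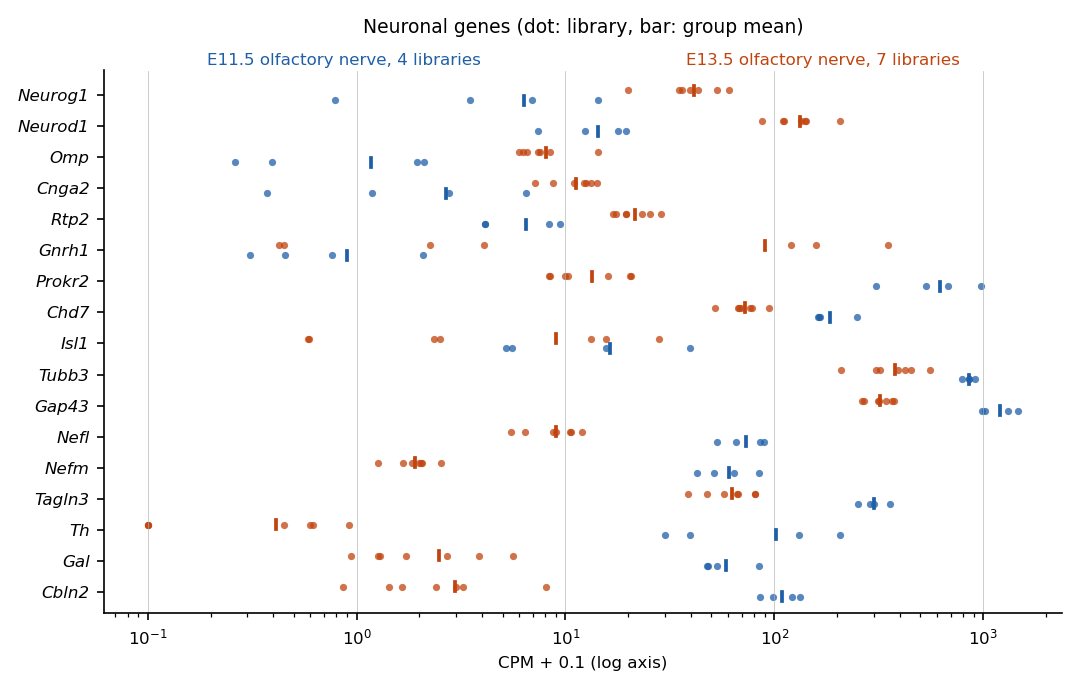
Level (CPM + 0.1, log axis) of 17 neuronal genes, with 1 dot per library (blue E11.5, n = 4; red E13.5, n = 7) and a bar at the group mean. The precursor genes Neurog1 and Neurod1 and the maturation genes Omp, Cnga2 and Rtp2 lie higher at E13.5, the axonal genes from Tubb3 to Tagln3 lie lower, and Gnrh1 is spread over the whole range at E13.5.

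Forebrain markers were fixed as a list because the nerve runs beside the telencephalon. Of 14 tested telencephalon genes, 1 was higher and 5 lower at E13.5 (median -0.80, with 4 at the counting floor in a group). The share called was 42.9%, against 36.6% of all genes. Their summed level was 74.3 to 107 CPM at E11.5 and 36.4 to 80.7 CPM at E13.5. Emx2, a homeobox gene of the forebrain and olfactory system, did not pass (adjusted p = 0.101), except without E13.5_ON3 (0.0329).

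The 10 largest rises among genes of at least 50 CPM without overlap were of several kinds. Iigp1, an interferon-inducible GTPase, had no count in the 4 E11.5 libraries and 33.6 to 112 CPM at E13.5, at least 787-fold higher. Agtr2, the type 2 angiotensin receptor of fetal mesenchyme, had 0.0265, 0.00, 0.00 and 1.45 CPM at E11.5 and 142 to 361 CPM at E13.5 (log2 fold change 9.52, adjusted p = 6.88e-12). Mgp, a calcification inhibitor of cartilage and vessel walls, rose from 0.589 to 183 CPM (log2 fold change 8.27). Gdf10, a BMP-family ligand, rose from 0.431 to 97.5 CPM (7.73 on the log2 scale). Inmt, Rtl3 and Fmo6 rose from 0.991 to 1.56 CPM on average to 81.6 to 142 CPM. S100a8 and S100a9, the calprotectin subunits of neutrophils, had log2 fold changes of 9.35 and 9.36, but E13.5_ONL1 alone had 332 and 285 CPM, and the medians at E13.5 were 17.4 and 8.03 CPM. Pax9, described above, completes the 10.

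The largest falls by the same measure, of which 9 are given, were led by Arid3c, Th and Prokr2. Arid3c, an AT-rich DNA-binding factor, had 64.0, 69.6, 52.9 and 78.8 CPM at E11.5 and 0.00 to 0.315 CPM at E13.5 (log2 fold change -8.71, SE 0.50, adjusted p = 8.78e-14). Th, tyrosine hydroxylase of catecholamine synthesis, had 207, 29.7, 132 and 39.3 CPM at E11.5 and at most 0.815 CPM at E13.5 (log2 fold change -8.47, adjusted p = 2.76e-10). The E11.5 libraries fell far apart for Th, but each was over every E13.5 library. Cbln2, a secreted synaptic organizer, fell from 109 to 2.85 CPM, and Gal, the neuropeptide galanin, from 58.3 to 2.38 CPM, with log2 fold changes of -5.29 and -4.61. Arg1, an arginase, fell from 86.3 to 4.03 CPM (log2 fold change -4.41). Nefm, Prokr2, Vtn and Hbb-bh1, also among them, are described with their groups.

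Genes of fibroblasts and extracellular matrix were higher at E13.5. Of 19 tested fibroblast and matrix genes, 18 were higher and 1 lower, 100% called against 36.6% of all genes. Libraries did not overlap for 17 of them, beside 21.2% of all genes, and the median log2 fold change of the list was 1.77. Their summed level was 3082 to 4245 CPM at E11.5 and 6208 to 10037 CPM at E13.5. Col6a3, a collagen VI chain, rose from 0.901 to 7.88 CPM to 105 to 137 CPM (log2 fold change 4.75, adjusted p = 3.39e-11), and Ogn, a small leucine-rich proteoglycan, from 3.45 to 114 CPM (5.05). The exception, Lum, which encodes the proteoglycan lumican, fell from 243 to 347 CPM to 18.8 to 208 CPM (log2 fold change -2.02, adjusted p = 0.000104). The study's own mesenchyme genes, picked from this series, had 13 of 19 higher and 1 lower (median 1.70). For 16 cartilage and bone genes the counts were 8 and 1. The mesenchyme list had 73.7% called and the cartilage and bone list 56.25%, against 36.6% of all genes. Runx2, the bone master regulator, rose from 0.214 to 11.2 CPM, while Col2a1, the cartilage collagen, fell from 487 to 165 CPM.

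Vessel genes were mostly higher too. Of 16 endothelial genes, 12 were higher and 1 lower (median 1.26), a share called of 81.25% against 36.6% of all genes. Their summed level was 106 to 419 CPM at E11.5 and 585 to 898 CPM at E13.5. Pecam1 and Cdh5, endothelial junction proteins, had 1.88, 16.9, 16.6 and 24.7 CPM and 1.11, 10.4, 6.64 and 9.28 CPM at E11.5, and 57.8 to 111 and 28.7 to 48.3 CPM at E13.5. E13.5_ONL2 had by far the least of both. Of 13 mural cell genes, 8 were higher and 1 lower, a share called of 69.2%. Their summed level was 143 to 211 CPM at E11.5 and 255 to 491 CPM at E13.5. Rgs5, a pericyte marker, rose from 0.166 to 34.5 CPM (log2 fold change 7.66) and Abcc9, a potassium channel subunit of pericytes, from 1.29 to 37.1 CPM (4.86), while Des, the muscle intermediate filament desmin, fell from 11.3 to 3.40 CPM (-1.71). Of 17 macrophage genes, 6 were higher and none lower, a share called of 35.3%, near the 36.6% of all genes. Of these genes, 11 were higher without E13.5_ONL3 and 4 without E13.5_ONL4. Their median of 0.90 was 0.50 without E13.5_ONL2. Their summed level was 37.4 to 451 CPM at E11.5 and 241 to 658 CPM at E13.5. Adgre1, the F4/80 antigen, rose from 2.07 to 12.3 CPM, and Lyz2, a lysozyme, from 10.2 to 69.2 CPM.

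Epithelial genes were read as a pair of lists. The study's epithelium list had 8 of 15 higher and 3 lower (median 1.18), 73.3% called against 36.6% of all genes. Again the list was picked from this series, and its summed level was 1655 to 2274 CPM at E11.5 and 833 to 1744 CPM at E13.5. Of 16 surface and olfactory epithelium genes, 4 were higher (25%, against 20.2% of all genes) and none lower. Their median of 0.82 ran from 0.49 without E13.5_ONL2 to 1.5 without E13.5_ONL3, and the count of higher genes was 8 without E13.5_ONL3, 2 without E13.5_ONL2 and 1 without E13.5_ONL5. Their summed level was 223 to 362 CPM at E11.5 and 356 to 708 CPM at E13.5. Cdh1, epithelial cadherin, had 0.00, 3.07, 1.91 and 0.938 CPM at E11.5 and 8.95 to 28.7 CPM at E13.5 (log2 fold change 3.42). Cldn6, a tight junction protein of embryonic epithelium, was called higher (adjusted p = 0.0336) with overlapping levels of 4.95 to 39.2 and 25.4 to 104 CPM, and the call was lost without E13.5_ON2, E13.5_ON3, E13.5_ONL2 or E13.5_ONL5 (0.0691, 0.0509, 0.105 and 0.115). The summed levels of the fibroblast, endothelial and mural lists did not overlap between the stages, and their part in the changes of other genes was not tested.

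**Figure D5:**
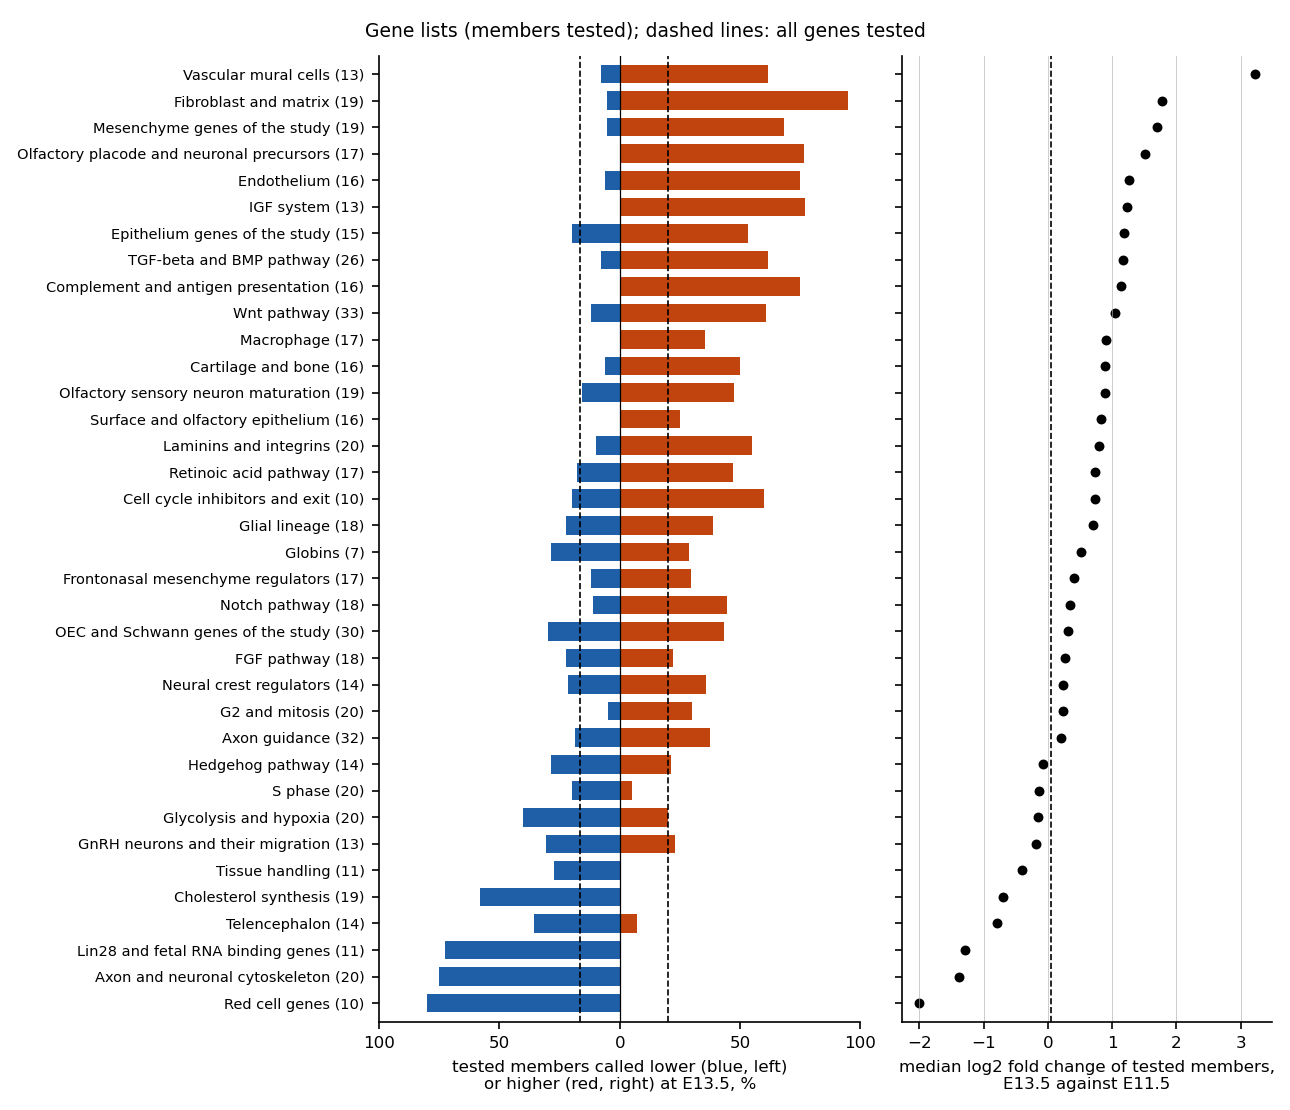
Left, the share of tested members called lower (blue, to the left) or higher (red, to the right) at E13.5 for each of 36 gene lists, with the number tested in parentheses. Right, the median log2 fold change of the tested members. Dashed lines mark all 19332 genes tested (16.4% lower, 20.2% higher, median 0.05). Mural cell and fibroblast genes stand at the higher end and red cell, axonal and Lin28 genes at the lower end.

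Of 7 globin genes, the embryonic Hbb-bh1 and Hba-x were lower at E13.5, the adult beta genes Hbb-bs and Hbb-bt were higher, and 3 did not pass the test. Red cells of the yolk sac make zeta- and epsilon-type chains, and those of the fetal liver make adult alpha and beta chains. Hbb-y and Hbb-bh1 are embryonic beta-type genes, Hba-x the embryonic alpha-type gene, Hbb-bs and Hbb-bt the adult beta genes and Hba-a1 and Hba-a2 the adult alpha genes. The 150 bases before the start of 4 of these genes are shown, to set embryonic beside adult promoters (RefSeq, GRCm38.p6, strand of the gene), with the CCAAT box, the CACCC box and the GATA motif, on either strand, in capitals, since all are textbook elements of globin promoters.
Hbb-y, chr7:103853208-103853357, minus strand: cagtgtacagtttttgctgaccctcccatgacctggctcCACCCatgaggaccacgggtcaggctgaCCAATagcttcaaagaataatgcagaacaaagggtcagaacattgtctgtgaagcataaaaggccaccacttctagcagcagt
Hba-x, chr11:32276450-32276599, plus strand: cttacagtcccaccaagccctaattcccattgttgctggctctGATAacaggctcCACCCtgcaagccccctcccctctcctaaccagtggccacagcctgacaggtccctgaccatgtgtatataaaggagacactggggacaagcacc
Hbb-bs, chr7:103827929-103828078, minus strand: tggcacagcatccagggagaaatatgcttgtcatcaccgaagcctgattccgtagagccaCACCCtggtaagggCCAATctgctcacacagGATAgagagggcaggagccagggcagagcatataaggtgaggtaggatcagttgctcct
Hbb-bt, chr7:103813924-103814073, minus strand: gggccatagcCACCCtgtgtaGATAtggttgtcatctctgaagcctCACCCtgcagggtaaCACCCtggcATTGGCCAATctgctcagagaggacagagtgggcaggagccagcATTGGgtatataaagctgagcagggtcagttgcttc

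The CCAAT box had 1 match in the window of Hbb-y, 1 in Hbb-bs, 3 in Hbb-bt and none in Hba-x. The CACCC box had 1 match in Hbb-y, Hba-x and Hbb-bs each and 3 in Hbb-bt. The GATA motif had 1 match in Hba-x, Hbb-bs and Hbb-bt each and none in Hbb-y. Of 32851 promoter windows of the same length, 24.5% held the first motif, 37.4% the second and 35.7% the third, so these letters are common and a match is a description only.

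Hbb-bh1 (chr7:103841637-103843164) had 170, 1375, 2402 and 1454 CPM at E11.5 and 24.4, 39.5 and 84.9 CPM as lowest, median and highest at E13.5. The groups did not overlap, with a log2 fold change of -4.80 (SE 0.46, adjusted p = 2.73e-09). Hba-x fell from 336, 3281, 4339 and 2515 CPM to 310 to 803 CPM (log2 fold change -2.32, adjusted p = 9.7e-05), and only E13.5_ONL2 overlapped the E13.5 group. Hbb-y had 675, 7030, 10301 and 6484 CPM at E11.5 and 4928 to 8368 CPM at E13.5, a difference that did not pass (log2 fold change 0.17, adjusted p = 0.843).

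The adult beta genes went the other way. Hbb-bs had 0.874, 8.48, 25.8 and 28.1 CPM at E11.5 and 174, 637 and 1073 CPM as lowest, median and highest at E13.5 (log2 fold change 5.25, SE 0.73, adjusted p = 1.83e-06). Hbb-bt had 0.768, 13.6, 25.6 and 22.5 CPM and then 115 to 638 CPM (log2 fold change 4.76, adjusted p = 1.5e-06). Neither overlapped. Hba-a1 and Hba-a2 did not pass (adjusted p = 0.317 and 0.579). Reads of near-identical copies may be split in counting, so Hba-a1 and Hba-a2, and likewise Hbb-bs and Hbb-bt, are each uncertain by themselves. Upstream of the start, the longest shared run was 247 of 250 bases for the alpha pair and 14 for the beta pair, which says nothing of their transcripts. Hba-a2 was at 0.889 CPM in E13.5_ON6 and 260 to 376 CPM in the other 6 E13.5 libraries.

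Globin levels were also set against Hbb-y in the same library. Per 100 CPM of Hbb-y there were 19.6 to 25.2 CPM of Hbb-bh1 at E11.5 and 0.298 to 1.52 CPM at E13.5. The adult pair Hbb-bs and Hbb-bt together made 0.243 to 0.780 CPM per 100 CPM of Hbb-y at E11.5 and 4.04 to 25.5 CPM at E13.5. Of 10 other red cell genes tested, 8 were lower and none higher (median -2.01), a share called of 80% against 36.6% of all genes. Only 1 did not overlap, where 21.2% of all genes did not. Klf1, the erythroid factor of the adult beta promoter, had 5.54, 14.8, 32.9 and 20.98 CPM at E11.5 and 0.839 to 1.70 CPM at E13.5 (log2 fold change -3.88), and Gata1, the master erythroid factor, had 0.106, 15.9, 18.9 and 15.03 CPM and then 0.442 to 1.87 CPM.

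Of 11 tested genes of Lin28 and fetal RNA-binding proteins, 8 were lower and none higher (median -1.29), and 3 did not pass the test. At 72.7%, the share called stood against 36.6% of all genes, and 8 did not overlap, beside 21.2% of all genes. Lin28b had 38.3, 39.7, 23.4 and 24.9 CPM at E11.5 and 2.89, 3.73 and 4.68 CPM as lowest, median and highest at E13.5 (log2 fold change -3.08, SE 0.36, adjusted p = 1.19e-07). Lin28a fell from 4.19, 7.33, 2.86 and 3.43 CPM to at most 0.415 CPM, with a log2 fold change of -5.24 (adjusted p = 2.39e-05, or 0.0758 by DESeq2). Trim71, a partner in the same let-7 circuit, fell from 8.73 to 1.06 CPM (-3.01), and Arid3b, a DNA-binding factor and let-7 target, from 47.5 to 10.6 CPM (-2.16). None of these overlapped.

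The insulin-like growth factor 2 mRNA-binding proteins fell by smaller amounts. Igf2bp3 fell from 190 ± 13.2 to 66.3 ± 6.88 CPM, Igf2bp1 from 40.9 ± 7.30 to 18.1 ± 2.14 CPM and Igf2bp2 from 186 ± 32.9 to 106 ± 13.6 CPM (SD, n = 4 and 7), with log2 fold changes of -1.52, -1.18 and -0.82. Hmga1, a chromatin protein of growing tissue, fell from 29.1 to 11.9 CPM (-1.29). Hmga2 did not pass (log2 fold change -0.48, adjusted p = 0.107, or 0.0412 without E13.5_ONL5), nor did the Musashi genes Msi1 and Msi2 (0.42 and 0.17).

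Signalling pathways were read as lists of ligands, receptors and targets. In the IGF system, 10 of 13 genes were higher and none lower (median 1.23), a share called of 76.9% against 36.6% of all genes. The ligand Igf1 rose from 8.13, 17.8, 7.68 and 16.1 CPM to 142 to 241 CPM (log2 fold change 3.89, SE 0.26, adjusted p = 2.02e-12), and Igf2 from 97.2 to 229 CPM to 549 to 911 CPM (log2 fold change 1.99). In the TGF-beta and BMP pathway, 16 of 26 were higher and 2 lower (median 1.16), a share called of 69.2%. The ligand Bmp2 rose from 0.352 to 15.1 CPM (5.403) and Gdf10 rose as above.

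Of 33 Wnt pathway genes, 20 were higher and 4 lower (median 1.05), a share called of 72.7% against 36.6% of all genes. Rspo3, a secreted enhancer of Wnt receptors, rose from 0.591 to 13.7 CPM (log2 fold change 4.49), and Dkk2, a secreted Wnt modulator, from 4.91 to 57.8 CPM (3.56). Of 18 Notch pathway genes, 8 were higher and 2 lower (median 0.34), a share called of 55.6% against 36.6% of all genes. Mfng, a glycosyltransferase that tunes Notch receptors, rose from 1.99, 17.4, 31.2 and 22.7 CPM to 57.9 to 148 CPM (2.41). Hey2 and Heyl are members of this list too.

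FGF genes were split, with 4 of 18 higher and 4 lower, a share called of 44.4% against 36.6% of all genes. Their median was 0.27, or 0.13 without E13.5_ONL2, and the count of higher genes was 7 without E13.5_ONL3 and 2 without E13.5_ONL4. Fgf10, a mesenchymal ligand, rose from 0.876 to 17.0 CPM (log2 fold change 4.26), and Fgf15, an early neural ligand, from 0.00, 5.13, 1.20 and 16.2 CPM to 22.5 to 56.1 CPM (2.78, adjusted p = 0.0192, or 0.0622 without E13.5_ONL4). Etv4, a transcription factor induced by FGF signalling, fell from 107, 41.0, 122 and 83.0 CPM to 20.7 to 31.7 CPM (-1.67, adjusted p = 8.52e-08). Hedgehog genes had 3 of 14 higher and 4 lower, a share called of 50% against 36.6% of all genes. Their median was -0.07, and its sign turned with the libraries used, from -0.17 without E13.5_ONL2 to 0.12 without E13.5_ONL4. Gli1, a target of the pathway, fell from 11.4 to 2.24 CPM (-2.33), and the receptor Ptch1, also a target, from 17.9 to 12.5 CPM with an adjusted p of 0.0493, a call lost in 9 of the 11 fits that left out 1 library (0.0505 to 0.174). Gas1, a membrane co-receptor for Hedgehog, rose from 5.42 to 98.8 CPM (4.19).

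Of 17 retinoic acid genes tested, 8 were higher and 3 lower (median 0.73), or 1 lower without E13.5_ONL4. The share called was 64.7%, against 36.6% of all genes. Aldh1a2 and Aldh1a3, enzymes of retinoic acid synthesis, rose from 20.8, 81.1, 72.0 and 149 CPM to 625 to 944 CPM (log2 fold change 3.26, adjusted p = 1.16e-06) and from 8.73 to 145 CPM (4.05). Crabp1, a cytoplasmic retinoic acid-binding protein, fell from 1165, 839, 1264 and 603 CPM to 130 to 466 CPM (-2.08, adjusted p = 7.92e-06). None of the 3 overlapped.

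Guidance and matrix genes that axons meet changed in both directions. Of 32 axon guidance genes, 12 were higher and 6 lower, a share called of 56.25% against 36.6% of all genes. Of the 32, 16 did not overlap, beside 21.2% of all genes. The median was 0.21, from 0.12 without E13.5_ONL2 to 0.32 without E13.5_ONL5. Sema3c and Unc5c, a secreted semaphorin and a netrin receptor, rose by log2 fold changes of 3.14 and 2.30. Sema3e, another secreted semaphorin, fell from 29.2 to 51.7 CPM to 1.26 to 5.33 CPM (-3.53, adjusted p = 2.82e-09). Of 20 laminins and integrins, 11 were higher and 2 lower (median 0.79), a share called of 65%. The laminin chain Lamc1 rose from 25.6, 19.6, 25.6 and 20.5 CPM to 122 to 172 CPM (2.61, SE 0.14, adjusted p = 4.18e-14), and Lama1, an early basement membrane chain, fell from 46.8 to 20.9 CPM (-1.17).

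Of 20 S phase genes, 1 was higher and 4 lower (median -0.14), and of 20 genes of G2 and mitosis, 6 were higher and 1 lower (median 0.23). The shares called were 25% and 35%, against 36.6% of all genes. The S phase median ran from -0.28 without E13.5_ONL3 to -0.012 without E13.5_ONL4, and that of G2 and mitosis from 0.071 without E13.5_ONL5 to 0.35 without E13.5_ON4. Leaving out E13.5_ONL4 left no S phase gene called lower, and leaving out E13.5_ON3, E13.5_ON4 or E13.5_ONL2 left 2. The 6 became 3 without E13.5_ON2, E13.5_ON3, E13.5_ON6 or E13.5_ONL5. Top2a and Kif11, needed for chromosome separation, rose by log2 fold changes of 0.74 and 0.79, and the mitotic kinase gene Plk1 fell by 0.64 on the log2 scale. Dtl, which ends the licensing of replication, rose by a log2 fold change of 0.71, and the replication gene Mcm3 and the repair gene Ung had log2 fold changes of -0.53 and -0.67. The call of Mcm3 was lost without E13.5_ONL4 (adjusted p = 0.117), and that of Ung in 6 of the 11 fits that left out 1 library (0.0592 to 0.156). Of 10 cell cycle inhibitors, 6 were higher and 2 lower (median 0.73), a share called of 80%. Btg1, an antiproliferative gene, rose from 64.6 to 141 CPM, and Cdkn2d, a CDK inhibitor, fell from 99.7 to 60.2 CPM.

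Of 19 cholesterol synthesis genes, 11 were lower and none higher (median -0.70), a share called of 57.9% against 36.6% of all genes. All 19 were lower without E13.5_ONL3. Dhcr7, a sterol reductase of the last steps of the pathway, fell from 69.1, 31, 84.2 and 64.3 CPM to 22.7 to 37.2 CPM (log2 fold change -1.01, adjusted p = 0.000182), and E13.5_ONL3 lay within the E13.5 range. Of 20 glycolysis and hypoxia genes, 4 were higher and 8 lower, a share called of 60% (median -0.15, or -0.037 without E13.5_ONL4). Eno1, enolase, fell from 743 to 354 CPM (-1.07) and Tpi1, the isomerase earlier in the pathway, rose from 575 to 898 CPM (0.64), both without overlap.

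Complement and antigen presentation genes were higher in 12 of 16 cases and lower in none (median 1.14). The 12 were 75% of those tested, beside 20.2% of all genes called higher. Ifitm1 and Ifi27, interferon-inducible genes, rose by log2 fold changes of 4.73 and 4.09. Genes of the immediate early response to tissue handling had 3 of 11 lower and none higher (median -0.41, or -0.23 without E13.5_ON5). The share called was 27.3%, against 36.6% of all genes. Ier2 and Jun, of this list, fell from 219 to 46.9 CPM and from 91.0 to 31.6 CPM. The part of handling in other changes was not tested. Of 5 sex-linked genes, 0 passed the test by edgeR or by DESeq2, and 0 had an unadjusted p under 0.05. Xist was present without Y genes in 3 libraries at E13.5 and 2 at E11.5, and Y genes without Xist in 4 and 2, so both groups held embryos of both sexes. At E11.5, E13.5_ONL2 and E13.5_ONL3 had Xist (164 and 244 CPM), and E13.5_ONL4 and E13.5_ONL5 had Ddx3y (43.5 and 64.6 CPM). With 2 embryos at E11.5 by the study's methods, each pair came from 1 embryo, 1 female and 1 male. Leaving out 1 E11.5 library therefore left out no whole embryo.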

How the data were processed

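RNA of laser-cut nerve pieces was sequenced in 31 libraries. The authors deposited raw counts of reads per gene, made with TopHat2 2.1.0, HTSeq and the mm10 genome by the submitters' processing notes and the study's methods. A row without a gene name was left out of library sizes and tests. Of 47729 genes, 47310 had a symbol in GENCODE M21 (GRCm38), and 33331 had a count. Columns of the study's own table of means served only to find which libraries form each group.

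Counts were scaled with TMM, filtered with filterByExpr by group and tested with the quasi-likelihood test of edgeR 4.0.16 (limma 3.58.1, R 4.3.3) over all 31 libraries jointly, each of the 7 regrouped sets having its own term and all sharing 1 estimate of the spread. P-values were Benjamini-Hochberg adjusted over 19332 genes, at a threshold of 0.05. DESeq2 1.42.0, other scalings, filters and sample sets were alternatives. The levels are CPM with the same factors, means are ± SD over libraries, and a count of 3 or fewer is the floor, so that folds relative to such a group are lower bounds. Matching of means and summaries used Python 3.11.15, NumPy 2.4.6, pandas 2.3.3, SciPy 1.17.1 and matplotlib 3.10.9. The fits were tested on simulated data.

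Genes named are the 30 genes of the study's glial list, the 10 largest rises and 10 largest falls among called genes of at least 50 CPM without overlap, up to 3 called genes of at least 10 CPM from each of 37 lists, and all globin, Lin28 and sex-linked genes. Not all of these are printed, and list counts include every tested member. Fabp7, Erbb3, Tubb3, Omp and Isl1 were added after their values were seen. The groups, members and lists were chosen with earlier results of these data known. Promoters came from RefSeq, and Hbb-bh1 had no entry. Pieces of 1 embryo share it, so n counts pieces, not embryos.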

Additional observations from a re-analysis of the deposited data

Results flagged for a closer look

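For each gene named in the report, the highest and lowest library of a group was compared with the others by Dixon's ratio at its 95% critical value. Of 274 groups of values tested, 30 had such a library, and chance alone gives about 1 in 20. The values were as follows, in CPM.

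At E13.5, E13.5_ONL1, whose title names the nerve layer, stood apart for 6 genes. It had 332 CPM of S100a8 and 285 CPM of S100a9, the neutrophil genes, against at most 92.7 and 92.8 in the other 6 libraries. It also had the most Cbln2 (7.96, others at most 3.12), Fabp7 (769.5, others at most 465), Igf2bp1 (22.5, others at most 18.7) and Nell2 (86.5, others at most 61.3). E13.5_ON2 was highest for Aldh1a3 (247), Crabp1 (466), Lum (208) and Vtn (11.3), where the others reached 148, 259, 68.1 and 1.96. E13.5_ON7 was highest for Col2a1 (369) and Rspo3 (23.9) and lowest for Inmt (56.6, others at least 108). E13.5_ON6 was lowest for Hba-a2 (0.889, others at least 260) and highest for Omp (14.1, others at most 8.32). E13.5_ON4 was highest for Hmga1 (20.8), and E13.5_ON3 was highest for Cnpy1 (53.7, others at most 29.9).

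At E11.5, E13.5_ONL3 stood apart for 5 genes. Its Erbb3 level was 34.3 and that of the other 3 libraries 107 to 117, and it was highest for Aldh1a3 (24.1), Chd7 (248.8), S100b (1.85) and Sema6a (82.7). E13.5_ONL5 was highest for Agtr2 (1.455), Gal (84.4), Gfra3 (17.3) and Ifi27 (1.81). E13.5_ONL2 was lowest for Abcc9 (0.397, others at least 1.52) and highest for S100a8 (0.318) and S100a9 (0.291). E13.5_ONL4 was highest for Sox5 (55.3, others at most 42.8).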

How the results depend on the processing

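The 7071 calls became 7629 by DESeq2, 7124, 7141 and 7133 with DESeq2's size factors, total counts and upper quartiles as scaling, 7122 without a filter, 5773 with the 11 libraries alone and 6330 to 7010 without any 1 library (3489 to 4195 higher, 2607 to 3080 lower). Asking for a 2-fold change left 3920 (2536 higher and 1384 lower). With libraries grouped by their titles, a comparison of other libraries, 3380 were called (1799 higher, 1581 lower), of which 1490 had the direction of the report and 250 the opposite. DESeq2, the scalings, the filters and the thinning of counts, chosen after seeing the data, turned the direction of no named gene. Named calls were lost by DESeq2 for Cldn6, Fgf15, Lin28a and Ptch1 (adjusted p = 0.125, 0.0851, 0.0758 and 0.0652), under the 3 scalings and without a filter Ptch1 (0.0622 to 0.0659), with thinned counts Adgrg1 and Ptch1 (0.05004 and 0.0616), and with the 11 libraries alone Fyn, Ptch1, Ptprz1, Slc2a1 and Ung (0.0877, 0.0794, 0.0651, 0.094 and 0.0579), where Hmga2 was called (0.0214).

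Libraries of E11.5 and E13.5 came from different embryos, so their title numbers form no pairs by design. As a description, deviations from the group means correlated at -0.0202 to 0.0696 over the 4 same-numbered pairs and -0.0943 to 0.127 over other pairs. With a replicate block, which rests on the title number alone, 3592 genes were called (1948 higher, 1644 lower). Under that block the adjusted p of Gnrh1 was 0.106 and that of Gata1 0.115, the number of lower red cell genes was 1 and of lower telencephalon genes 1, and Cntn1, Hes5 and Xist, not called, had log2 fold changes of -0.19, 0.011 and -5.77.

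Leaving out 1 library turned the sign of genes that were not called, whose log2 fold changes ran from -0.10 to 0.40 for Cntn1, -0.20 to 0.54 for Hbb-y, -0.26 to 0.16 for Hes1, -0.52 to 0.46 for Hes5, -1.49 to 0.018 for Isl1, -1.69 to 0.0052 for Prss56, -0.17 to 0.056 for Sema6a, -0.18 to 0.90 for Uty and -0.43 to 1.03 for Xist.

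By titles, log2 fold changes turned to 0.34 for Arid3b, 1.16 for Col2a1, 0.68 for Crabp1, 0.92 for Des, 0.14 for Eno1, 0.51 for Etv4, 0.47 for Hba-x, 0.72 for Hbb-bh1, 1.61 for Hes1, 1.08 for Hmga1, 0.76 for Hmga2, 0.61 for Ier2, 0.11 for Jun, 0.79 for Klf1, 3.19 for Lin28a, 0.24 for Mcm3, 0.65 for Plk1 and 0.074 for Ung. They turned to -1.21 for Adgrg1, -1.49 for Cntn1, -0.70 for Dpysl3, -2.01 for Fabp7, -0.71 for Frzb, -0.88 for Fyn, -0.29 for Gnrh1, -1.65 for Hey2, -1.15 for Id2, -0.97 for Igf1, -0.013 for Itga1, -1.26 for Lypd6, -0.39 for Lyz2, -1.74 for Mmd2, -2.43 for Npy, -0.18 for Ptn, -1.13 for S100a8, -0.78 for S100a9, -2.41 for Wif1, -1.19 for Xist and -0.20 for Zbtb20.

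The pieces came from few embryos. Stage cannot be told apart from depth or from the mitochondrial share of counts, neither of which overlapped between the groups. Counting limits genes near the floor, which is 0.258 CPM at E13.5 and 0.0956 CPM at E11.5 on average.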

Other observations

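Odorant receptor genes, which belong to no list of the report and were looked at after the other values, were counted as a family. The file lists 1277 of them, and reads can be shared between near-identical members. Their summed level was 239 to 681 CPM in the 7 E13.5 libraries and 130 to 441 CPM in the 4 E11.5 libraries, which overlap. Receptor genes with more than 3 counts numbered 123 to 311 in an E13.5 library and 54 to 97 in an E11.5 library, although the E11.5 libraries were deeper.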
